A study of Homo sapiens with 2 samples.

Results

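The genes examined here are 10 genes of the integrated stress response, and the data are the LDB1 peaks that lie at them. The members are PPP1R15A, PPP1R15B, EIF2AK1, ATF4, ATF3, DDIT3, TRIB3, ASNS, CHAC1 and SESN2, out of 20033 protein-coding genes annotated on the assembled chromosomes. They were chosen by their place in the pathway and on the peak list itself, because PPP1R15A carries the longest peak of the list. Each deposited peak that overlaps a gene body extended by 10 kb on each side was counted as a peak of that gene, which gave 14 of the 11046 peaks. Because the peaks were the basis of that choice, their number and length are a description, and no test was made on them.

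The cells were NB4, an established line from a human acute promyelocytic leukemia, and the assay was CUT&Tag. An antibody in it carries a transposase to its protein, so that DNA close by is cut and sequenced. LDB1 is a co-regulator without a DNA-binding domain of its own that forms a complex with LMO2 and with GATA and E-box factors. The series has 2 libraries, 1 made with an LDB1 antibody from NB4 cells labelled as overexpressing LDB1 and 1 made with IgG from NB4 cells labelled untreated, so antibody and treatment cannot be told apart. There were no replicates. The deposited values are peak positions and lengths of the LDB1 library with no heights, so the read depth at each peak is unknown and a longer peak cannot be read as stronger binding. Where an interval is given beside a share, it is a Wilson 95% interval. It covers counting error only, and several peaks at 1 gene share a locus.

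The integrated stress response is the pathway by which cells slow protein synthesis when heme, amino acids or folding capacity run short. Kinases, among them the heme-regulated EIF2AK1, phosphorylate the initiation factor eIF2, which lowers general translation while the mRNA of the transcription factor ATF4 is translated more. ATF4 then switches on genes for amino acid supply and for stress outcomes, and PPP1R15A ends the response by bringing a phosphatase back to eIF2. In red cell precursors EIF2AK1 is known for matching globin synthesis to heme.

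The sequences below are those that carry the known LDB1 complex element, the composite of an E-box remnant and a GATA motif. They are shown because 3 of the 14 peaks hold it (21.4%), close to the 22.4% of all peaks that do. The composite was searched as CTG, then 7 or 8 bases, then a GATA motif (AGATAA or AGATAG or TGATAA or TGATAG), on both strands. Bases are given from 5′ to 3′ on the strand of the gene, build hg38, with the composite in capitals and 30 bases on each side in lower case. The first lies in coding exon 2 of PPP1R15A at chr19:48873654-48873730, plus strand. The second lies 5129 bp upstream of the canonical TSS (transcription start site) at chr19:48867255-48867330, plus strand, and the last lies upstream of PPP1R15B at chr1:204417239-204417314, minus strand.
PPP1R15A exon 2: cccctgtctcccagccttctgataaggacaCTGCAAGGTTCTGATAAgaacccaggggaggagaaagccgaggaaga
PPP1R15A upstream: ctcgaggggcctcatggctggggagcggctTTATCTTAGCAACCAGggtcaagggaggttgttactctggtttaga
PPP1R15B upstream: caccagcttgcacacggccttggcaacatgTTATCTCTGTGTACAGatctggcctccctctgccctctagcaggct

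In exon 2 of PPP1R15A the composite reads along the gene, and another GATA motif stands just ahead of it. In both upstream regions it reads against the gene, so that the GATA motif appears as TTATCT ahead of CAG. No composite lay in the central 200 bp of its peak. In the PPP1R15B peak it began 3 bases from the peak's edge.

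Peaks were present at 5 of the 10 members (50%, interval 23.7 to 76.3%). In the same window 25.1% of all protein-coding genes had a peak, and 21.9% of those no longer than ATF3, the longest member. PPP1R15A had 6 peaks, TRIB3 had 4, EIF2AK1 had 2, and PPP1R15B and SESN2 had 1 each. ATF4, ATF3, DDIT3, ASNS and CHAC1 had none. With 50 kb on each side ATF4, ATF3 and DDIT3 had peaks too, and with 3 kb PPP1R15B had none, so this division depends on the window. PPP1R15A and TRIB3 were the 2 members with at least 4 peaks, a number reached by 3.05% of protein-coding genes. Neither reached it when only peaks with their nearest protein-coding TSS at the gene were counted, which left 2 at PPP1R15A and 3 at TRIB3. Relative to the summed windows the members held 34.8 peaks per Mb, compared with 5.69 over all protein-coding genes and 9.71 over those no longer than ATF3. The members were chosen on this peak list and 6 of their peaks were at PPP1R15A, so this density is no measure of enrichment. Longer genes have longer windows, and the median gene length was 18131 bp among the members and 27471 bp among all. PPP1R15A held 8995 of the 12180 peak bases at the members (73.9%). The other 8 peaks together covered 3185 bp and the longest of them was 560 bp.

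**Figure D1:**
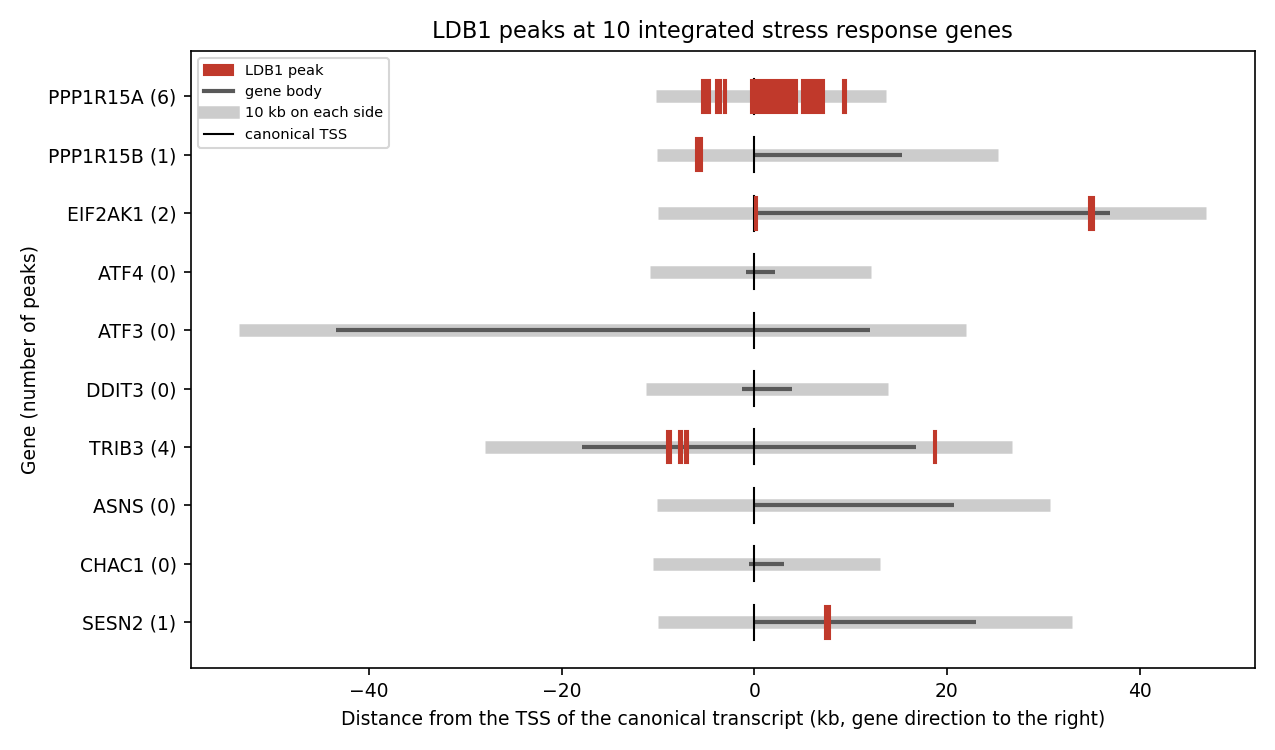
LDB1 peaks (red) at the 10 genes, drawn along the gene direction by distance in kb from the TSS of the canonical transcript. Dark lines are gene bodies and grey bars add 10 kb on each side. PPP1R15A is the only one of the 10 whose body lies wholly within a peak, and 5 genes have no peak in the window.

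PPP1R15A encodes the stress-induced subunit that directs protein phosphatase 1 to eIF2. The gene (ENSG00000087074.9) lies on chromosome 19 from 48872212 to 48876059, plus strand, and is 3848 bp long. Its main peak ran from 48872056 to 48876911, a length of 4856 bp. It covered 100% of the annotated gene body, began 365 bp before the TSS of the canonical transcript and ended 852 bp beyond the gene. Of its bases, 2022 were coding, 1288 were intronic and 1218 lay outside the canonical transcript. All 5 annotated transcripts that start inside it belong to PPP1R15A. The peak was 10.8 times as long as the median peak of the list and 1.03 times as long as the next, which measured 4718 bp.

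A second long peak of 2317 bp (48877377 to 48879693, rank 84 of 11046) followed downstream after a gap of 465 bp. A peak of at least 2 kb was found in the window of 0.769% of protein-coding genes. Another downstream peak (48881652 to 48881989) was 338 bp long, and its midpoint was nearest to the TSS of TULP2 at 6372 bp. On the upstream side lay peaks of 807 bp (48867003 to 48867809), 428 bp (48868497 to 48868924) and 249 bp (48869250 to 48869498). These 3 were all nearer to a TSS of the neighbouring gene PLEKHA4, at 944, 93 and 757 bp, than to that of PPP1R15A, so their gene cannot be told from position alone. When peaks less than 1 kb apart were joined, the main peak and its downstream neighbour formed a region of 7638 bp, rank 5 among joined regions.

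By peak bases in the window, PPP1R15A ranked 24 of 20033 protein-coding genes. The 5 genes with most were GSE1 with 39170 bp in 50 peaks, MRPS22 with 14751 bp, ZFPM1 with 14431 bp, USP20 with 13770 bp and KSR1 with 12996 bp, in windows longer than that of PPP1R15A. Relative to the window, peaks covered 37.7% at PPP1R15A, the highest share of any protein-coding gene. The next gene reached 32.1%, and 13 genes were above 20%. A short gene that holds the longest peak of the list is bound to rank high on this measure.

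**Figure D2:**
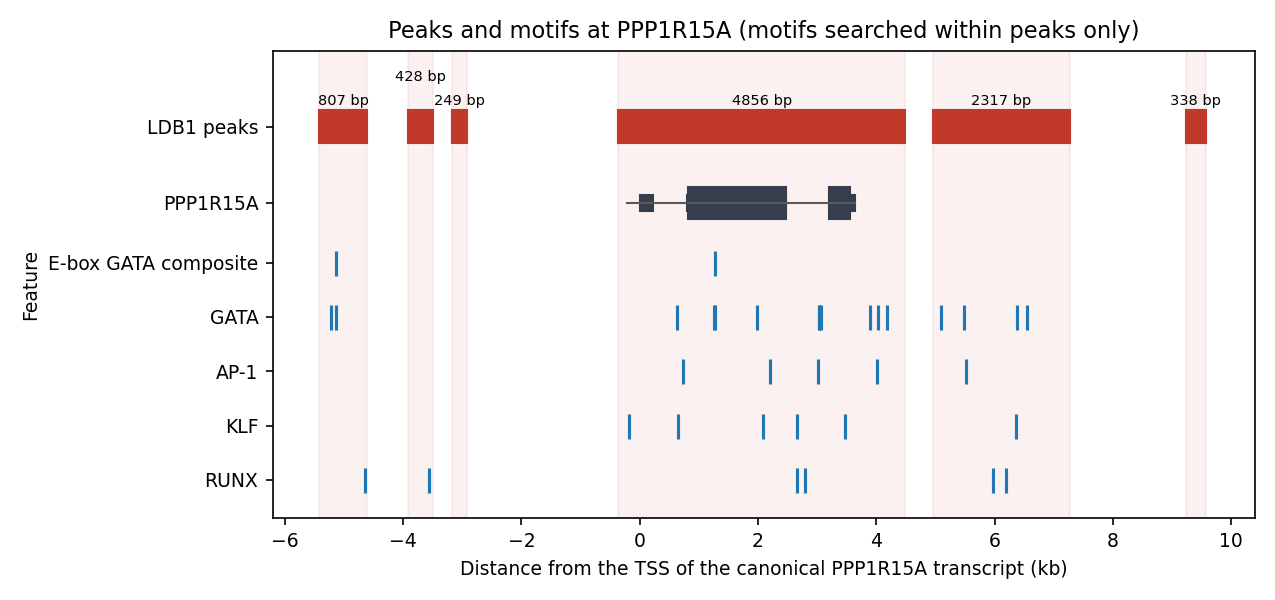
The 6 peaks at PPP1R15A (red, lengths in bp) by distance in kb from the canonical TSS, with the exons (thick where coding) and the motifs found within the peaks. The main peak of 4856 bp spans the gene, and its 10 GATA, 4 AP-1 and 5 KLF motifs are spread along it, GATA from 625 to 4177 bp, AP-1 from 734 to 4017 bp and KLF from -178 to 3467 bp of the TSS.

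To see which factors' sequences lie under the main peak, motifs were searched on both strands along its whole length. It held 10 GATA motifs, or 2.06 per kb, where all peaks together held 2.64 per kb. Of these, 3 were in coding sequence, 4 in introns and 3 outside the canonical transcript. It held 5 KLF motifs (GGGTGTGG or GGGCGTGG), which is 1.03 per kb compared with 0.305 per kb over all peaks. AP-1 motifs (TGACTCA or TGAGTCA) numbered 4, or 0.824 per kb compared with 0.395. E-boxes (CAGNTG) numbered 14, or 2.88 per kb compared with 3.63, and RUNX motifs (TGTGGT) 2, or 0.412 per kb compared with 0.929. No ETS motif (CCGGAA) or CEBP-ATF element (TGATGNAA) was found. KLF and AP-1 motifs were thus denser and GATA, E-box and RUNX motifs sparser than over the list, with counts too small to tell a difference. Its single composite compares with a median of 1.0 among the 158 peaks of at least 2 kb, of which 58.2% held at least 1.

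The centre of the main peak is printed next, since it stands in for the missing summit. It lies in coding exon 2 at chr19:48874384-48874583, plus strand, and the GATA motif, read on the opposite strand, is in capitals.
PPP1R15A centre: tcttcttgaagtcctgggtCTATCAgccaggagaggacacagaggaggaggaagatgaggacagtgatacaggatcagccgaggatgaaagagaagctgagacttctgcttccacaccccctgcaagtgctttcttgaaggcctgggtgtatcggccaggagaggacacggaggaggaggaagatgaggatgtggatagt
A stretch of 20 bases occurs in it again 129 bases further on, so the coding sequence is internally repeated there. The central 31 bases nevertheless occur once in hg38. That also held for the other 13 peaks, whereas 10.7% of all peaks had a central sequence with more than 1 copy.

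PPP1R15B encodes the constitutive counterpart of PPP1R15A, which keeps eIF2 dephosphorylated in unstressed cells. The gene (ENSG00000158615.10) lies on chromosome 1 from 204396492 to 204411887, minus strand. Its single peak ran from 204417266 to 204417825, a length of 560 bp, with 5379 bp between it and the gene. The midpoint was 5728 bp upstream of the canonical TSS, and no protein-coding TSS was nearer than one of PPP1R15B. The peak carried 2 GATA motifs, 1 of them in the composite shown above, 1 E-box (CAGNTG), 1 RUNX motif (TGTGGT) and 1 AP-1 motif. The phosphatase subunits thus differed in placement, with a peak over the whole gene at PPP1R15A and none within the gene at PPP1R15B.

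EIF2AK1 encodes the heme-regulated kinase. The gene (ENSG00000086232.13) lies on chromosome 7 from 6022247 to 6059175, minus strand, and had 2 peaks at opposite ends. The peak at the 5′ end (6058892 to 6059131) was 240 bp long, shorter than 95.6% of the list, and its midpoint lay 164 bp into coding exon 1. It held no GATA motif. It was also the most GC-rich of the 14 peaks at 74.6%, where the median of all peaks was 51.4%, and its ratio of observed to expected CpG was 0.972 compared with a median of 0.216. The peak at the 3′ end (6023896 to 6024404) was 509 bp long and lay wholly in the noncoding part of exon 15. It carried 2 GATA motifs, 1 RUNX motif and 1 KLF motif, all within its central 200 bp, where the RUNX and KLF motifs overlapped. Along its whole length it also carried 3 E-boxes.

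Among the targets of ATF4, TRIB3 encodes a pseudokinase that restrains ATF4 and the kinase AKT. The gene (ENSG00000101255.12) lies on chromosome 20 from 362835 to 397559, plus strand. A group of 3 peaks of 438 bp (371667 to 372104), 387 bp (372906 to 373292) and 276 bp (373572 to 373847) lay within the annotated body but 8875, 7661 and 7051 bp upstream of the canonical TSS. The last, of 261 bp (399386 to 399646), lay 1827 bp beyond the gene, and its midpoint was nearer to RBCK1, 7982 bp from a TSS. All 4 were below the median length of the list, 451 bp. The 3 upstream peaks held no GATA motif, and the downstream peak held 1.

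The longest TRIB3 peak held the CEBP-ATF element, TGATGNAA, which ATF4 binds together with C/EBP proteins. It was the only one among the 14 peaks. Over all peaks the element occurred 0.120 times per kb, and over the 14 peaks 0.0821 times per kb. It is shown in capitals with 30 bases on each side, at chr20:371950-372017, plus strand.
TRIB3 upstream: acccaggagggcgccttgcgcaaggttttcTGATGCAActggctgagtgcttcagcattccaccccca

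SESN2 encodes a sestrin that holds back mTORC1 when leucine is scarce. The gene (ENSG00000130766.5) lies on chromosome 1 from 28259518 to 28282491, plus strand. Its peak ran from 28266852 to 28267365 (514 bp) in intron 1, 7590 bp from the TSS. It held 2 GATA motifs and 1 ETS motif (CCGGAA). One GATA motif was 25 bp from the peak's midpoint, read on the opposite strand, and is in capitals in the central 200 bp at chr1:28267009-28267208, plus strand.
SESN2 intron 1: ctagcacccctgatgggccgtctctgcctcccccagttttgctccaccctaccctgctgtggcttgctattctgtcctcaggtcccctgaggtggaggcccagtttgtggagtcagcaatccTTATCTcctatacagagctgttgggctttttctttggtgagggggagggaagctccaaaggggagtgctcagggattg

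The members without a peak lay at very different distances from one. ATF3 (ENSG00000162772.18, chromosome 1, 212565334 to 212620777, plus strand), a stress-induced bZIP factor, had its nearest peak 14.8 kb downstream, an 871 bp peak from 212635529 to 212636399. DDIT3 (ENSG00000175197.13, chromosome 12, 57516588 to 57521737, minus strand), the proapoptotic factor also called CHOP, had its nearest 17.4 kb upstream, a peak of 1449 bp (57539185 to 57540633) centred 138 bp from a TSS of DCTN2. Both distances are short, since 71.5% and 69.6% of protein-coding genes were at least as far from a peak. ATF4 itself (ENSG00000128272.18, chromosome 22, 39519695 to 39522683, plus strand) had its nearest 30.4 kb upstream, a 538 bp peak from 39488752 to 39489289 that lay nearer to MIEF1. This peak carried the composite at its centre, as did the peak nearest to CHAC1, which was centred 2388 bp from a TSS of PPP1R14D. The composite was at the centre of 11.2% of all peaks, and was absent there from the peaks nearest to ATF3, DDIT3 and ASNS. For CHAC1 (ENSG00000128965.13, chromosome 15, 40952962 to 40956512, plus strand), a glutathione-degrading enzyme, the distance was 126 kb. For ASNS (ENSG00000070669.17, chromosome 7, 97851677 to 97872542, minus strand), asparagine synthetase, it was 260.5 kb, to a peak of only 241 bp. Of protein-coding genes 36.8% were at least as far from a peak as CHAC1 and 22.3% at least as far as ASNS. At the limit of 10 kb used to assign peaks, the farthest peak inside was the 338 bp peak at PPP1R15A, 5593 bp from the gene. Among the members without a peak, the nearest outside was that of ATF3 at 14752 bp. With 50 kb on each side PPP1R15A had 15 peaks and TRIB3 had 7, and the distances of those added were not measured.

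Lengths of the 14 peaks ranged from 240 to 4856 bp with a median of 433 bp (interval 261 to 807 bp), compared with 451 bp over the list. Longer than the list's median were 6 of the 14, where 50% is the share of the list. The long peaks were those of PPP1R15A, and away from that gene the median was 412.5 bp. In base composition the 14 peaks had a median GC content of 55.7% (45.9 to 74.6%), compared with a median of 51.4% and quartiles of 47.7 and 56.3% over the list. Near a TSS, within 3 kb of any annotated transcript, lay 6 peaks (42.9%, interval 21.4 to 67.4%), compared with 35.6% of all peaks. The interval includes the share of the list. Of these 6, 3 were those at PLEKHA4, and another was the 3′ peak of EIF2AK1, near a TSS other than the canonical one. The protein-coding gene with the nearest TSS was the member itself for 9 peaks and another gene for 5.

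**Figure D3:**
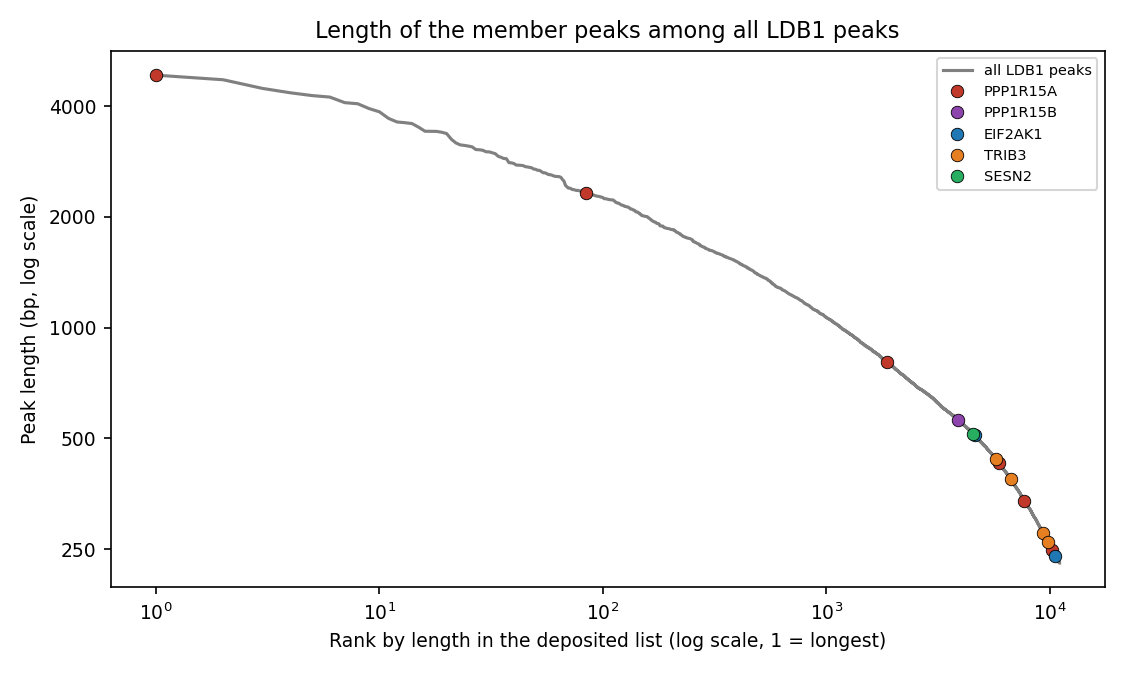
Length in bp (log scale) against rank by length (log scale, 1 is the longest) for all 11046 LDB1 peaks (grey line) and the 14 peaks at the members (points, coloured by gene). PPP1R15A takes ranks 1 and 84, and the peaks at the other 4 genes lie at rank 3887 or lower.

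Motifs at the centre were then compared with the list, in the 200 bp around each midpoint. GATA was found in 5 of 14 peaks (35.7%, interval 16.3 to 61.2%), compared with 47.1% of all peaks and 27.5% of flanking windows 1000 bp to either side. In the 6 peaks longer than the list's median the share was 66.7%, compared with 53.0% of the longer peaks of the list, so its side of the list's share depends on the length. The GATA motifs at the centre were those of the main PPP1R15A peak, PPP1R15B, the 3′ peak of EIF2AK1, the downstream TRIB3 peak and SESN2. The composite was found in 0 of 14 centres (interval 0 to 21.5%), compared with 11.2% of all peaks. Across whole peaks GATA was in 7 of 14 (50%), compared with 71.4% of all peaks, a count that grows with peak length. The composite, which contains a GATA motif by definition, was in 3 of 14 (21.4%), compared with 22.4% of all peaks.

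Of the other motifs, the E-box CAGNTG was found in 8 centres (57.1%), where 51.5% of all peaks had it. RUNX was in 3 (21.4%) and 17.3% of all peaks. KLF was in 2 (14.3%) and 6.16% of all peaks. AP-1, ETS and the CEBP-ATF element were found in no centre, where 9.5%, 3.52% and 2.15% of all peaks had them. For all 8 motifs the interval of the 14 peaks included the share of the list, so at this number of peaks no difference from the list was detectable.

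**Figure D4:**
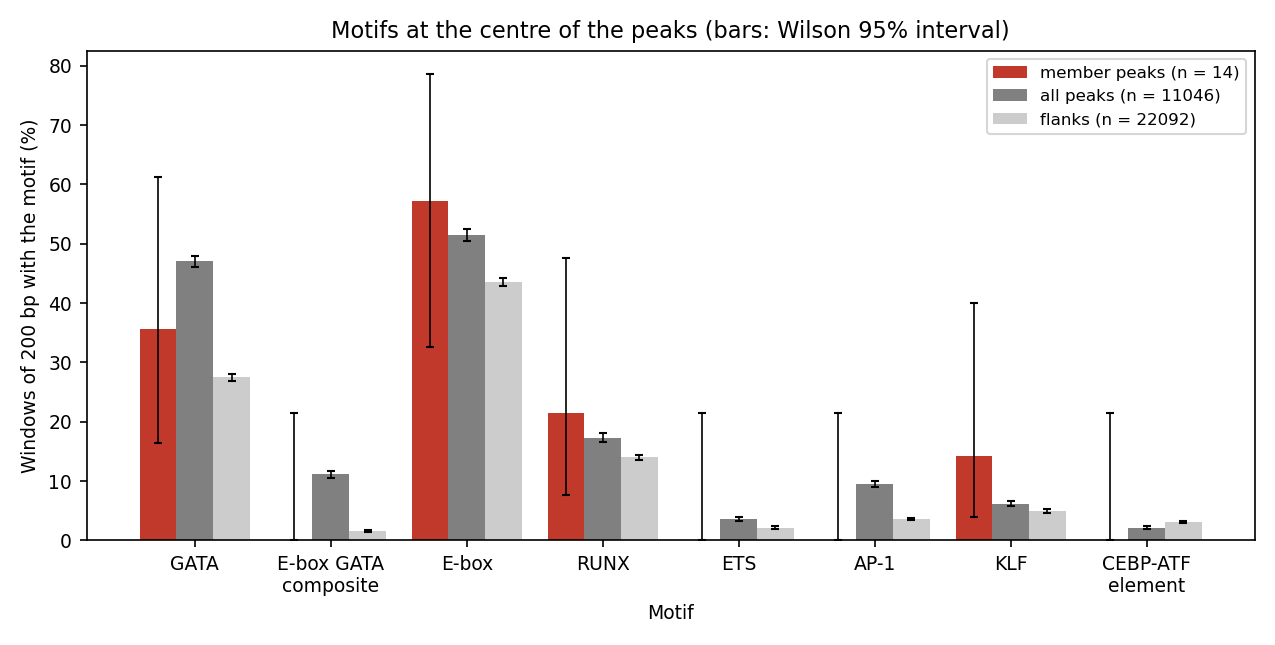
Share of 200 bp windows with each motif (percent), for the 14 peaks at the members (red), all 11046 peaks (dark grey) and 22092 flanking windows (light grey). Error bars are Wilson 95% intervals, and each red interval includes the dark grey value, for example 35.7% against 47.1% for GATA.

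To set the peaks beside the promoters, the RefSeq sequences from 250 bases before to 50 after each gene start (GRCh38.p14) were searched. They were matched for 9 of the 10 members, with EIF2AK1 the exception, and since some members have several starts the 9 genes have 15 promoters. Of these, that of PPP1R15A overlapped a peak, with all 300 of its bases inside, and the others did not. EIF2AK1, whose 5′ peak lies 45 bp from a TSS, was not among the genes searched. No member promoter held a GATA motif, where 8769 of all 35116 promoters (25%) did. The promoters searched at ATF3 and TRIB3 do not cover their canonical TSS, at 212608761 and 380760. The CEBP-ATF element was found in the promoters of PPP1R15B, ATF3, ASNS and CHAC1 (4 of 9 genes), where 4.46% of all genes with a promoter held it in at least 1. At ATF3 it lies in the promoter of another start, at 212565157 to 212565456. Per promoter it was in 4 of 15 (26.7%), compared with 3.62% of all promoters. Targets of ATF4, which binds this element with C/EBP proteins, were chosen as members, so these shares are no result about the members. ETS was found in 5 of 9 genes, compared with 20.1% of all genes, and in 8 of 15 promoters (53.3%), compared with 17.2% of all promoters. The promoters of TRIB3 overlap, as do those of DDIT3, so 1 ETS site can be counted more than once. The E-box was in 6 of 9 genes (54.9% of all genes), KLF in 2 (9.61%), AP-1 in 1 (6.05%) and RUNX in 0 (15.6%). All genes here are the 27305 with a promoter, a larger set than the 20033 protein-coding genes. With 9 genes and no interval computed, no difference is claimed for any motif. None of the 4 promoters with the CEBP-ATF element overlapped an LDB1 peak.

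The elements of these promoters are shown so that they can be set beside that of the TRIB3 peak. The element is in capitals, on the strand of the gene. That of ATF3 is not from the promoter of the canonical TSS. Their positions are chr1:204412026-204412055 (minus) for PPP1R15B, chr1:212565205-212565234 (plus) for ATF3, chr7:97872458-97872487 (minus) for ASNS and chr15:40953251-40953280 (plus) for CHAC1.
PPP1R15B promoter: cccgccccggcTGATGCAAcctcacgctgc
ATF3 promoter: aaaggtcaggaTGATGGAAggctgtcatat
ASNS promoter: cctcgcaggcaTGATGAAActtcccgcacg
CHAC1 promoter: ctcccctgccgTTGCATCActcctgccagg
PPP1R15B has the same 8 bases as the TRIB3 peak, and CHAC1 has them on the opposite strand. The pattern TGATGNAA fixes every base but the N, so this match was largely set by the search.

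The wider pathway was examined with 56 other genes, listed by role. Peaks were found at 18 of them (32.1%, interval 21.4 to 45.2%), compared with 25.1% of all protein-coding genes. None of the 3 other eIF2 kinases (EIF2AK2, EIF2AK3 and EIF2AK4), the 3 kinase activators and the 3 phosphatase catalytic subunits had a peak. Of 8 eIF2 and eIF2B subunits 1 had a peak (EIF2S2), and of 4 bZIP factors 1 (CEBPB). Amino acid transporters had peaks at 5 of 7 genes, and stress effectors and secreted factors at 7 of 12. Enzymes of amino acid and one-carbon metabolism had them at 2 of 9, and genes of tRNA charging and export at 2 of 7. Together 1 of the 17 other genes that sense stress or act on eIF2 had a peak. That peak lay 2197 bp outside EIF2S2, and its nearest protein-coding TSS was that of RALY. The 17 leave out EIF2AK1, PPP1R15A and PPP1R15B, which have such roles and peaks but are counted as members. Since the members were chosen with the peaks known, this low count is no result about these roles. No test was made between roles.

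The 5 other genes with the longest peaks were SLC7A5, SLC6A9, PHGDH, GDF15 and DDIT4. SLC7A5, a transporter of large neutral amino acids, had 5 peaks, the longest 3417 bp in intron 1. SLC6A9, a glycine transporter, had 6, the longest 3138 bp and 4464 bp upstream of the canonical TSS. PHGDH, the entry enzyme of serine synthesis, had 9 with 7193 bp in all. The longest, of 2676 bp in intron 8, had a composite at its centre. It was centred 81 bp from a PHGDH TSS other than the canonical one. GDF15, a secreted stress factor, had 3, the longest 2167 bp. DDIT4, an inhibitor of mTORC1, had 2, the longest 1744 bp and centred 437 bp upstream of its canonical TSS. The 45 peaks at these 18 genes had a median length of 543 bp, compared with 451 bp over the list. GATA was at the centre of 31.1%, compared with 47.1% of all peaks, and the composite at the centre of 3, or 6.67%, compared with 11.2%. No interval was computed for these shares, and many of these peaks share a gene, so no difference from the list is claimed. No gene of the 56 had as many peak bases as PPP1R15A.

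**Figure D5:**
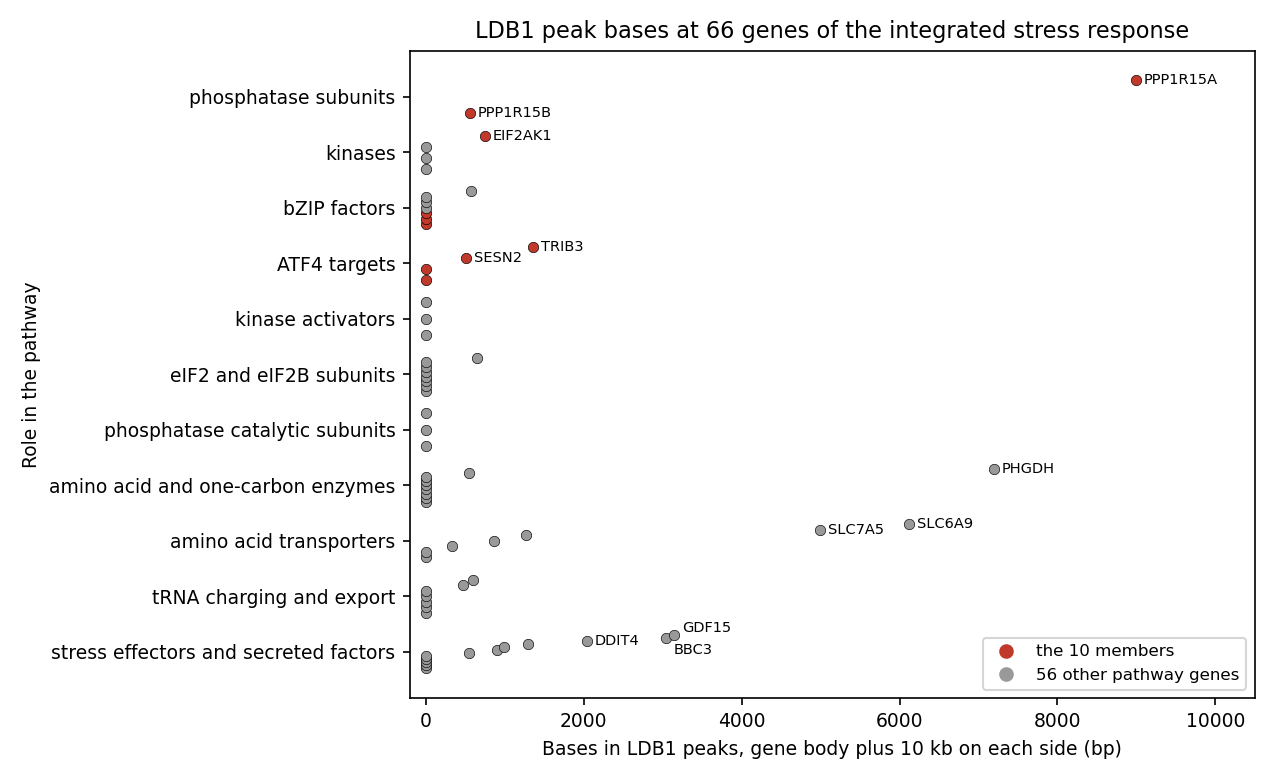
Bases in LDB1 peaks (bp, gene body plus 10 kb on each side) for the 10 members (red) and 56 other genes of the pathway (grey), 1 point per gene, grouped by role. PPP1R15A stands at 8995 bp, followed by PHGDH at 7193 bp and SLC6A9 at 6124 bp, while most genes stand at 0.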

How the data were processed

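Per the labels and the paper's methods, the authors aligned paired-end CUT&Tag reads to hg38 with Bowtie2 2.4.4 and called peaks with MACS3 3.0 on fragments. Whether IgG served as control, and how duplicates and repeated alignments were handled, is not given in the sources used here. A list called without a control could hold more open or repeated sequence. The deposited values are the start, end and length of each LDB1 peak in bp, and no height, q-value or summit. Positions were read as counted from 1. The last chromosome X peak ends at 156003136, within the 156040895 bp of hg38.

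Gene bodies, canonical transcripts and TSS came from GENCODE release 44. Peaks were assigned by overlap with the gene plus 10 kb, and the peak's midpoint stood in for the summit. The genes named were all members with their peaks, the gene nearest to each peak, the 5 genes with most peak bases and, of the other pathway genes, the 5 with the longest peaks, with counts by role. EIF2S2, CEBPB and the other eIF2 kinases were named besides, after their values were seen. The members and lists were chosen with earlier results of these data known. No test between groups was made, since each antibody has 1 library. Overlap counting and motif search were tested on simulated data. Python 3.11.15, pandas 2.3.3, SciPy 1.17.1 and pysam 0.24.0 were used.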

Additional observations from a re-analysis of the deposited data

How the results depend on the processing

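No paired analysis was possible because the design holds a single library for each antibody. Of 38 values under other settings, 28 stayed within 1.5 times (counts) or within the counting interval (shares, median) and 10 did not. The 9 counts that moved follow from a wider or narrower rule by construction. With 50 kb on each side, 8 of the 10 members (ASNS and CHAC1 excepted) had 37 peaks, and 30 of the 56 other genes had a peak. When only peaks centred within 3 kb of a TSS of the gene counted, 2 members (PPP1R15A and EIF2AK1) had 4 peaks. These include the 3′ peak of EIF2AK1, 2402 bp from a TSS of another transcript and 35025 bp from the canonical TSS. The number of peaks was 7 within gene bodies alone, 9 when the nearest protein-coding TSS had to be that of the member, 9 with neighbours under 1 kb apart joined, and 6 among peaks longer than the list's median. In these 6 peaks the share with a GATA motif at the centre was 66.7%, compared with 53.0% of all peaks in the longer part of the list, and the cause was not tested. Windows of 3 kb left 4 members with a peak, and PPP1R15B dropped out. Without peak heights, a replicate or the IgG peaks, neither the strength nor the repeatability of any peak could be judged.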
